A study of Mus musculus with 14 samples.

Results

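Gene expression in the inhibitory neuron types I1a and I3b of the mouse medial vestibular nucleus was compared, as I1a minus I3b, and both were set against every other pool of the series. Each type was represented by 1 pool of amplified single-cell cDNA and 2 technical arrays, so the comparison rests on 4 of 14 arrays and 2 of 7 pools. The members were the arrays labelled I1a and I3b. Pools E1 and E2, classed as excitatory, and I1b, I2 and I3a, classed as inhibitory, made up the rest, and a further excitatory type named in the design, E3, was not analysed here. All pools, I1a and I3b included, carry the same labels: brainstem tissue, C57BL/6 background, an age of 24 to 32 days after birth, and cells taken from 3 reporter lines named YFP-16, GIN or GlyT2-13. Which line gave the cells of a pool, and how many cells each pool held, is not stated in the labels. In these lines Thy1, Gad1 and Slc6a5 sequences, respectively, drive the fluorescent protein, so the reporters mark subsets of the neurons. The study assigned cells to types by their transmitter genes, ion channels and marker genes, so differences in such genes are in part what defined the groups.

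The medial vestibular nucleus receives input from the balance organs of the inner ear and inhibition from cerebellar Purkinje cells, and its neurons drive eye and head reflexes. Its inhibitory neurons release GABA, glycine or both. Some project across the midline to the opposite nucleus and others act locally. Neurons that fire fast and regularly depend on sodium and potassium channels that reopen quickly, and they often hold large axons rich in neurofilaments and a release machinery built for speed.

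Values are log2 signals with a floor of 2.387, so a level near 3 means a signal close to that floor and a difference of 1 is a doubling. A gene was analysed when at least 1 of the 7 types had a mean of 5 or more, which held for 4409 of 16244 genes. A gene was called when the limma adjusted p was under 0.05 and the difference was at least 1 log2 unit. The 2 arrays of a type come from 1 pool. The p-values between I1a and I3b therefore measure technical error and compare 2 pools, not 2 cell populations.

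The markers of inhibitory neurons were present at high levels in both pools. Slc32a1, the vesicular transporter for GABA and glycine, had mean levels of 9.32 in I1a and 9.57 in I3b. Gad1, which makes GABA, had 11.71 and 12.36, and Gad2, its close relative, 8.41 and 9.33. Slc6a5, the neuronal glycine transporter GlyT2, had 8.41 in I1a and 7.53 in I3b. None of the 6 measured genes of the GABAergic and glycinergic identity list was called between the pools. The differences nearest to the threshold were -0.93 for Gad2 and 0.89 for Slc6a5, and Slc6a5 was called after quantile normalization (1.15) and after centring the arrays (1.09). Most markers of other cells were low in both pools. All 5 microglial and all 5 endothelial and mural markers, 5 of 6 astrocyte markers and 7 of 8 oligodendrocyte lineage markers were under 5 in I1a and I3b. The log2 of the summed oligodendrocyte signals was 6.31 in I1a and 6.36 in I3b, against 5.87 to 9.39 in the other pools, and that of the astrocyte markers 12.04 and 11.64 against 11.88 to 12.33. The astrocyte sums were carried by Aldoc, an aldolase, at 12.03 in I1a and 11.63 in I3b, and the defining markers Gfap and Aqp4 were at the floor. Of the 6 Purkinje and granule cell markers, 5 were under 5 and the sums were 7.46 and 8.56, both set mainly by Neurod1, at 7.21 and 8.44.

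Between I1a and I3b, 626 genes were called (14.2% of those tested). Of these, 167 were higher in I1a (3.79% of the tested genes) and 459 were higher in I3b (10.4%). In all 626, both arrays of 1 pool lay above both arrays of the other. The share called was above 14.2% in most of the gene lists with at least 4 tested genes, from 20.0% of 5 monoamine and acetylcholine receptor genes to 63.6% of 11 sodium channel genes, and below it in the glycolysis list (9.09%), the chaperone list (11.1%) and the lists with no call. The lists were chosen with earlier results known, so these shares are descriptions. A difference of at least 2 log2 units was reached by 49 called genes on the I1a side and 73 on the I3b side. The excess on the I3b side moved with the scaling of the arrays. The median difference over all genes was -0.19, and it became 0.02 with quantile normalization and 0.01 after centring. The I1a side held 26.7% of the calls as deposited, 44.3% (257 of the calls, with 323 for I3b) after quantile normalization and 44.8% (254 and 313) after centring. I1a also had the lowest mean level of all pools, 6.73, against 6.95 in I3b and 7.03 in I2, the highest. The 9 probe sets for the bacterial controls Lys, Dap and Phe were all lower in I1a (I1a minus I3b, -1.29 to -0.87 log2 units). The 18 for BioB, BioC, BioD and Cre differed by -0.03 to 0.17. Low Lys and Dap signals were not particular to I1a. On the Lys probe set LysX-M, I1a had a mean of 6.15, and I1b (6.22), E1 (6.21) and E2 (5.54) were low too. I3b had 7.32 there, with I2 (7.42) and I3a (7.78) near it. The part of these control levels in the gene counts was not tested.

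**Figure D1:**
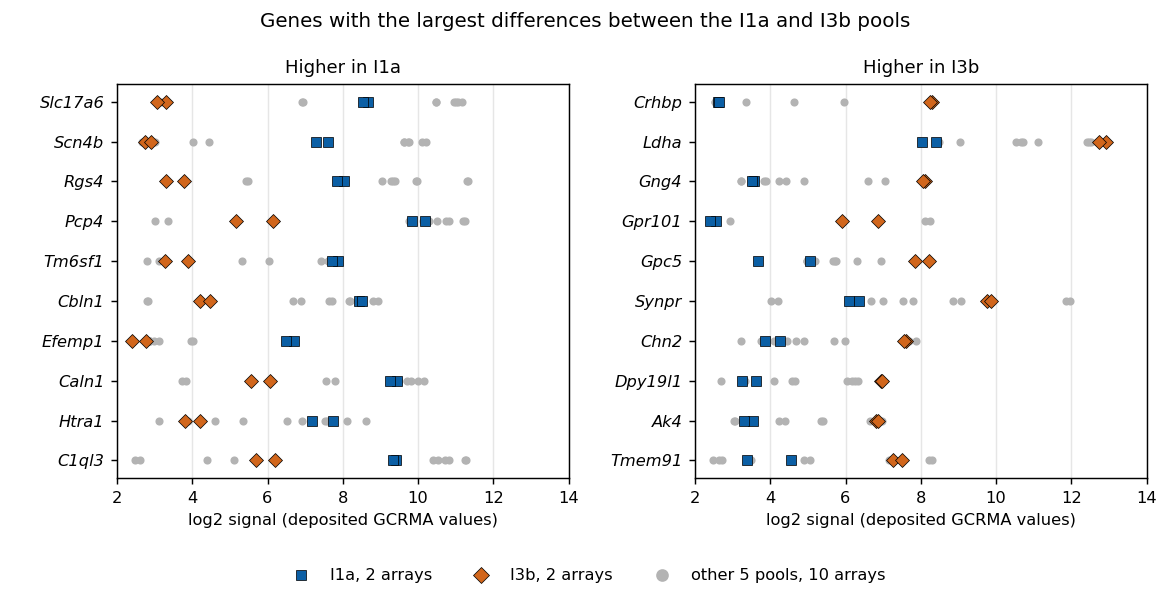
Signals of the 10 genes with the largest called difference in each direction, with the deposited log2 value of each array on the horizontal axis; blue squares are the I1a arrays, orange diamonds the I3b arrays and grey circles the 10 arrays of the other pools. Genes were shown only if their I1a and I3b arrays did not overlap, which held for all 626 called genes. The widest separations are Slc17a6 (5.41) on the left and Crhbp (-5.65) on the right.

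Slc17a6 and Scn4b headed the genes higher in I1a. Slc17a6, the vesicular glutamate transporter VGLUT2, read 8.66 and 8.53 on the I1a arrays and 3.32 and 3.06 on the I3b arrays. The arrays stood far apart, with a difference of 5.41 (SE 0.11, limma adjusted p = 3.40e-11), and the I3b values lay near the floor. Scn4b, the sodium channel beta-4 subunit that supports resurgent current, read 7.61 and 7.29 in I1a and 2.73 and 2.91 in I3b, a difference of 4.63 (SE 0.18, limma adjusted p = 4.11e-09). Here too only the I1a arrays lay clear of the floor. Slc17a6 is a transmitter gene and Scn4b a channel gene, and genes of both kinds were used to assign the cells.

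Rgs4, an inhibitor of G protein signalling, read 8.03 and 7.83 in I1a and 3.79 and 3.31 in I3b. Pcp4, a modulator of calmodulin, read 10.18 and 9.84 against 5.17 and 6.15. Cbln1, a secreted organiser that bridges neurexins and delta glutamate receptors at synapses, read 8.44 and 8.50 against 4.21 and 4.47. The differences were 4.39, 4.35 and 4.13, and the I3b arrays of Pcp4 were the most spread of these. Htra1, a secreted serine protease, differed by 3.44, C1ql3, a synaptic organiser of the C1q family, by 3.43, and Caln1, a calmodulin-like protein of neurons, by 3.54. Tm6sf1 completed the leading genes apart from Efemp1, with a difference of 4.22. Efemp1, the extracellular matrix protein fibulin-3, read 6.71 and 6.48 in I1a and 2.77 and 2.39 in I3b, a difference of 4.01. No other pool had a mean above 3.99 for Efemp1, so it was high in I1a alone.

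On the I3b side the widest difference was in Crhbp, a secreted protein that binds corticotropin-releasing hormone. It read 2.61 and 2.64 on the I1a arrays and 8.30 and 8.24 on the I3b arrays, a difference of -5.65 (SE 0.35, limma adjusted p = 2.79e-07). The I1a values were near the floor, and I3a, the other type of the I3 family, lay between at 5.30. Ldha, the lactate dehydrogenase A subunit, read 8.41 and 8.03 in I1a and 12.93 and 12.74 in I3b, a difference of -4.61. Both pools held Ldha well above the floor. As deposited, it was the only called gene among the 11 tested of the glycolysis list. The median of that list was -0.03, and it became 0.28 after quantile normalization and 0.18 after centring, when 2 other members were called higher in I1a.

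Gng4, a G protein gamma subunit, read 3.58 and 3.51 in I1a and 8.11 and 8.07 in I3b, a difference of -4.54. Synpr, the vesicle protein synaptoporin, read 6.10 and 6.35 against 9.75 and 9.86, a difference of -3.58. Gpc5, a heparan sulfate proteoglycan of the cell surface, read 3.68 and 5.05 against 7.86 and 8.22, a difference of -3.67. The 2 I1a arrays of Gpc5 differed by more than 1 unit from each other but stayed below both I3b arrays. Gpr101, an orphan receptor, differed by -3.92, Chn2, a GTPase-activating protein for Rac, by -3.52, and Dpy19l1, a member of the DPY19 glycosyltransferase family, by -3.51. Ak4, a mitochondrial adenylate kinase, differed by -3.42 and Tmem91 by -3.39. Gpr101 was not highest in I3b: its mean in I2 was 8.18.

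Several channel genes tied to fast firing were higher in I1a. Of 8 tested genes in the fast-spiking channel list, 4 were called higher in I1a and 1 higher in I3b. The share called was 62.5%, beside 14.2% of all tested genes, and the median difference was 0.99 against -0.19 over all genes. Kcna1, the potassium channel Kv1.1, read 8.51 and 8.40 in I1a and 5.06 and 5.47 in I3b, a difference of 3.19 (SE 0.13, limma adjusted p = 7.90e-09). Kcnc2, the Kv3.2 channel, read 4.70 and 4.88 against 2.43 and 2.39, a difference of 2.38 that lies low on the scale. With values under 5 set to 5, the Kcnc2 call was lost. Scn8a, the sodium channel Nav1.6, read 8.87 and 8.53 against 7.45 and 7.83, a difference of 1.06. Kcnc1, the Kv3.1 channel, had 10.46 and 9.54, a difference of 0.92 under the threshold. Kcnab1, an auxiliary subunit of Kv1 channels, was the exception, at 3.28 and 4.11 in I1a and 4.96 and 5.74 in I3b, and its call was lost under the same setting. I3b had the lowest Kcna1 and Kcnc2 of all pools on both arrays, while I1a was not the highest: Kcna1 was 10.02 in E1 and 9.39 in I1b. Since ion channels helped to define the types, the direction of this list is not an independent finding.

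Sodium channel genes moved both ways. Of 11 tested, 2 were called higher in I1a (Scn4b and Scn8a) and 5 higher in I3b, with a median of -0.18. After quantile normalization the counts were 2 and 3 with a median of 0.15, and after centring 2 and 4 with a median of 0.03. Scn3a fell under the signal filter after quantile normalization, so the counts and median there leave it out. Scn2a, the sodium channel Nav1.2, read 6.83 and 6.64 in I1a and 9.59 and 9.60 in I3b, a difference of -2.86. The auxiliary subunit Scn3b differed by -2.46, Scn3a, the Nav1.3 channel, by -1.69, and the channel-binding factors Fgf13 and Fgf14 by -1.83 and -1.04, the last not called under either scaling. Thus Scn8a and Scn2a, which encode different main sodium channels of the axon, stood in opposite order in the pools. Of 17 Kv channel genes, 3 were called higher in I1a and 2 higher in I3b as deposited, and 6 and 1 under either scaling. As deposited, 63.6% of the sodium channel list and 29.4% of the Kv list were called, beside 14.2% of all tested genes.

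Some neurofilament and release genes were higher in I1a. Of 4 tested neurofilament genes, 2 were called higher in I1a and none higher in I3b, with a median of 0.76. Nefh, the heavy chain, read 7.79 and 7.63 in I1a and 5.04 and 5.22 in I3b, and Nefm, the medium chain, differed by 1.31. Nefl, the light chain (0.22), and Ina, alpha-internexin (-0.05), did not pass. Of 11 fast release genes, 3 were called higher in I1a and 1 higher in I3b, with a median of 0.22. The shares called were 50% of the neurofilament list and 36.4% of the release list, beside 14.2% of all tested genes. Syt2, the fast calcium sensor of release, read 6.06 and 6.09 against 2.90 and 3.05, a difference of 3.10. Vamp1, a vesicle SNARE, had 8.11 and 6.08, and Unc13c, a priming factor, differed by 1.43. Stx1a, a SNARE of the plasma membrane, went the other way at 6.20 in I1a and 7.95 in I3b, but its call was lost when the probe sets of each gene were averaged. Syt2 was lower in I1a than in E1 (8.05), E2 (7.52) or I1b (7.91), so the I1a level was intermediate.

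**Figure D2:**
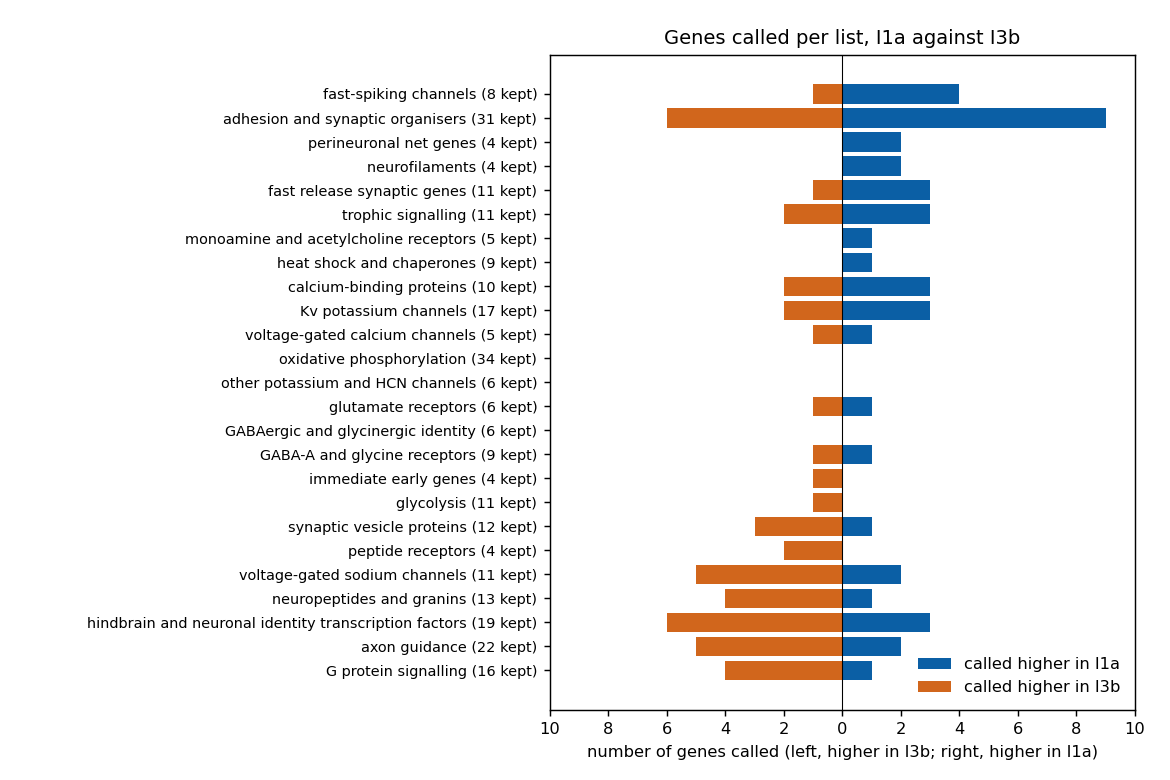
Bars count the called genes of each list, to the right for genes higher in I1a and to the left for genes higher in I3b, with the number of tested genes in brackets after each list's name. The fast-spiking channel list has 4 on the right and 1 on the left, the neuropeptide list 1 and 4, and the oxidative phosphorylation list none on either side.

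Several peptide genes were higher in I3b. Of 13 tested neuropeptide and granin genes, 1 was called higher in I1a and 4 higher in I3b, with a median of -0.57. Over all tested genes the shares were 3.79% and 10.4%. Under either scaling the list had 2 and 4. Penk, the enkephalin precursor, read 3.10 on both I1a arrays and 5.79 and 6.53 on the I3b arrays, a difference of -3.07. Vgf, a secreted granin-like protein, read 7.08 on both I1a arrays and 9.46 and 9.49 in I3b, a difference of -2.40. Both genes were higher in I3b than in any other pool by at least 1 unit on every array. Cck, the cholecystokinin precursor, was the gene called for I1a, at 4.84 and 4.75 against 2.45 and 2.42. Cck was higher still in I2, at 7.28 and 6.72, and its call was lost when values under 5 were set to 5. Among 4 tested peptide receptors, 2 were called higher in I3b. Tacr3, the neurokinin B receptor, read 8.51 and 8.22 in I1a and 11.37 and 11.39 in I3b, and Adcyap1r1, the PACAP receptor, differed by -1.51.

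Transcription factors parted the pools in both directions. Of 19 tested identity factors, 3 were called higher in I1a and 6 higher in I3b, with a median of -0.33. This was a share of 47.4%, beside 14.2% of all tested genes. The I3b count was 4 after quantile normalization and 5 after centring. Prdm8, a histone methyltransferase family repressor, read 4.82 and 5.05 in I1a and 8.14 and 8.45 in I3b. St18, a zinc finger factor, read 5.68 and 5.29 against 8.41 and 8.66. The differences were -3.36 and -3.05, and for both genes I3b was the highest pool. Ebf3, a helix-loop-helix factor, differed by -1.86, Mab21l1 by -1.49, Neurod1 by -1.23 and Meis1, a cofactor of Hox proteins, by -1.16. Neurod1 was no longer called after quantile normalization, nor Meis1 under either scaling. On the I1a side, Pbx3, a Hox cofactor, read 5.99 and 5.87 against 3.29 and 3.84, Irx1 differed by 1.59 and the orphan nuclear receptor Esrrg by 1.24. Hoxb3, a marker of hindbrain position, read 5.56 and 5.61 in I1a and 8.43 and 8.60 in I3b, a difference of -2.93. The mean of Hoxb3 was 8.54 in I3a and 8.51 in I3b.

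Surface and secreted molecules also separated the pools. Of 31 tested adhesion and synaptic organiser genes, 9 were called higher in I1a and 6 higher in I3b as deposited, and 11 and 2 under either scaling. The deposited calls were 48.4% of the list, beside 14.2% of all tested genes. The median of this list was -0.03 as deposited, 0.11 after quantile normalization and 0.18 after centring. Thy1, a surface glycoprotein, read 10.33 and 10.28 in I1a and 6.94 and 6.89 in I3b, a difference of 3.39. Thy1 sequences drive the YFP-16 reporter, and the labels do not say which line gave the cells of each pool. Pcdh8, a protocadherin, read 6.58 and 5.97 against 2.81 and 3.28, and Cbln4, a cerebellin, 6.67 and 6.59 against 3.35 and 3.91. Both were near the floor in I3b. On the other side, Cntn5, a contactin, read 4.98 and 4.95 in I1a and 6.94 and 7.01 in I3b, and Chl1, a cell adhesion molecule of the L1 family, differed by -1.01, which was not called under either scaling. Bcan, the perineuronal net proteoglycan brevican, read 10.35 and 10.15 in I1a and 7.80 and 8.09 in I3b, and Tnr, tenascin-R of the same nets, differed by 1.25. These were the called genes among 4 tested net genes, with a median of 0.83.

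Trophic factor genes were split. Of 11 tested, 3 were called higher in I1a and 2 higher in I3b, with a median of 0.58, and 5 and 2 were called under either scaling. The share called as deposited was 45.45%, beside 14.2% of all tested genes. Ret, the receptor for ligands of the GDNF family, read 8.33 and 8.18 in I1a and 5.62 and 5.51 in I3b. Lifr, the receptor for leukaemia inhibitory factor, differed by 1.12 and Fgf1 by 1.10. Igfbp5, which binds insulin-like growth factors, read 3.27 and 3.67 in I1a and 6.49 and 6.78 in I3b, a difference of -3.16. It was higher in I3b than in every other pool, and Igf1 itself, described among the shared genes, was also higher in I3b.

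Receptors for fast transmitters were called in both directions. Of 9 GABA-A and glycine receptor genes, 1 was called for each pool, a share of 22.2% beside 14.2% of all tested genes. Glra1, the glycine receptor alpha-1 subunit, read 10.75 and 10.81 in I1a and 9.51 and 9.53 in I3b, whereas Gphn, which encodes the scaffold protein gephyrin, had 3.16 and 4.54. The Gphn call was lost when either I1a replicate 2 or I3b replicate 2 was left out. Of 6 glutamate receptor genes, Grik3, a kainate receptor subunit, was called higher in I1a (1.52) and Grm7, a presynaptic metabotropic receptor, higher in I3b (-1.34). As deposited, Htr1d, a serotonin receptor, was the only called gene of 5 tested receptors for monoamines and acetylcholine, at 4.71 in I1a and 2.78 in I3b. Grik3, Grm7 and Htr1d were no longer called when the probe sets of each gene were averaged.

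Among the remaining lists, none of 34 oxidative phosphorylation genes was called, with a median of -0.15 that became 0.09 after quantile normalization and 0.06 after centring. None of 6 further potassium and HCN channel genes was called. Of 4 immediate early genes, Fos, an activity-regulated transcription factor, was called, at 4.35 and 4.34 in I1a and 6.53 and 6.33 in I3b. Among 16 G protein signalling genes, Rgs4 was called for I1a and Gng4, Rgs20 (-2.58), Gnai2 (-1.05) and Gnb5 (-1.02) for I3b, while the list's median of -0.14 became 0.15 after quantile normalization and 0.06 after centring. Gnai2 and Gnb5 lost their calls under both scalings. Of 22 axon guidance genes, 2 were called higher in I1a and 5 higher in I3b as deposited, and 4 and 3 under either scaling. As deposited, 31.8% of that list and 31.25% of the G protein list were called, beside 14.2% of all tested genes.

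The labels pair I1a with I1b and I3a with I3b, and I1b minus I3a shares no array with I1a minus I3b. The Lys and Dap controls were lower in I1b than in I3a as well, so both contrasts carry that control difference. The BioB, BioC, BioD and Cre controls, which differed little between I1a and I3b, were also lower in I1b than in I3a. BioB-3 had means of 7.88 in I1b and 9.62 in I3a, and CreX-3 had 14.54 and 15.13. The second contrast thus carries a control difference that the first does not. The part of these control differences in the calls of the contrasts was not tested. In that second contrast 714 genes were called (16.2%), 464 higher in I1b (10.5%) and 250 higher in I3a (5.67%). This split also moved with the scaling, to 370 and 316 after quantile normalization and 375 and 318 after centring. Of the 167 genes higher in I1a than in I3b, 82 (49.1%) were also higher in I1b than in I3a, 5 (2.99%) went the opposite way and 80 (47.9%) were not called. Of the 459 genes higher in I3b, 104 (22.7%) were also higher in I3a, 38 (8.28%) went the opposite way and 317 (69.1%) were not called. Seen from the second contrast, the 82 genes were 17.7% of its 464 and the 104 were 41.6% of its 250. The shares called the same way, 49.1% and 22.7% as deposited, were 38.9% and 31.9% after quantile normalization and 39.8% and 32.9% after centring. As deposited, the genes called the same way numbered 186 in all. They included Slc17a6, Scn4b, Kcna1, Kcnc2, Nefh, Syt2, Vamp1, Thy1 and Ret on the I1 side, and Scn2a, Hoxb3, Ebf3, Prdm8, Vgf and Cntn5 on the I3 side.

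Several leading genes did not part I1b from I3a in this way. Pcp4 was 10.41 in I1b and 9.94 in I3a, and the difference between the contrasts was 3.89 (SE 0.36, limma adjusted p = 1.43e-05). Because Pcp4 was picked for its I1a minus I3b difference on the same arrays, that low p adds no further evidence. Bcan was 10.21 in I1b and 10.50 in I3a, and Cbln4 was 8.08 and 7.64. For these genes I3b, together with I2, was the low inhibitory pool, at 5.66, 7.95 and 3.63. Over all tested genes, the difference between the contrasts was called for 963 (21.8%).

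As deposited, opposite calls made up 2.99% of the genes higher in I1a and 8.28% of those higher in I3b. Both shares lay below those of all tested genes called that way in the second contrast, 5.67% and 10.5%. Of the 43 genes called in opposite directions, Calb2 had the largest reversal. Calb2 encodes the calcium-binding protein calretinin. Its means were 7.73 in I1a, 9.86 in I3b, 7.29 in I1b and 3.44 in I3a. It was thus lower in I1a than in I3b (difference -2.13) and higher in I1b than in I3a by 3.85. Calb2 kept both calls after quantile normalization (-1.86 and 3.73) and after centring (-1.92 and 3.72). Chl1 also turned as deposited, at 5.73 and 6.74 in the first contrast and 9.57 and 7.71 in the second. Its first difference, -1.01, was -0.85 after quantile normalization and -0.80 after centring, so it was no longer called there. The counts in opposite directions were 33 after quantile normalization and 35 after centring.

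**Figure D3:**
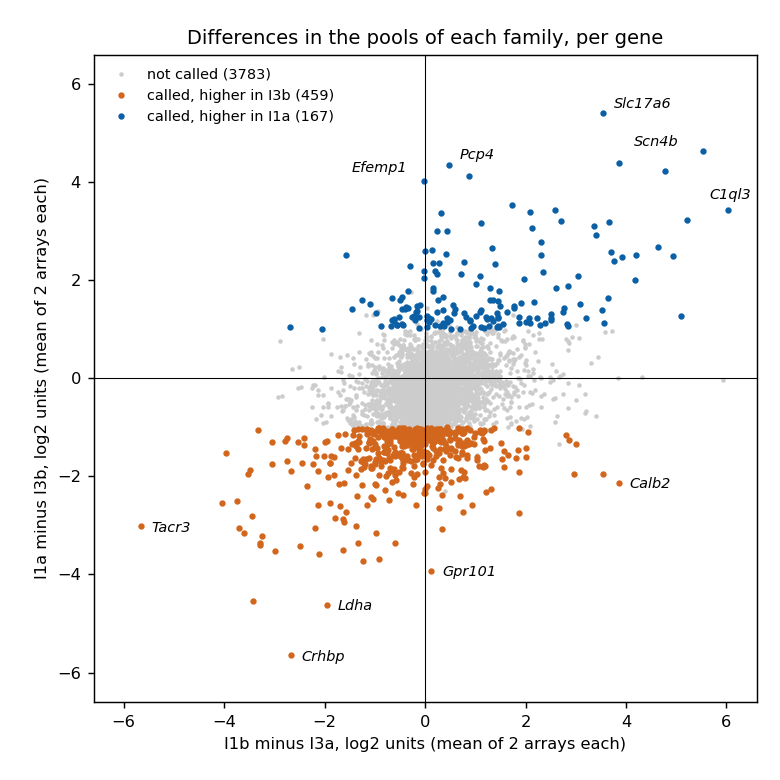
Each point is 1 of 4409 genes, with I1b minus I3a on the horizontal axis and I1a minus I3b on the vertical axis, both in log2 units from means of 2 arrays; blue and orange points were called higher in I1a (167) or in I3b (459), and grey points were not. Slc17a6 and Scn4b lie to the upper right and Crhbp to the lower left, while Calb2, at 3.85 and -2.13, lies to the lower right.

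The other pools did not lie evenly between I1a and I3b. For the 167 genes higher in I1a, the E1 mean was nearer to I1a than to I3b in 125 (74.9%), E2 in 113 (67.7%) and I1b in 110 (65.9%), but I2 in 58 (34.7%) and I3a in 55 (32.9%). For the 459 genes higher in I3b the corresponding counts were 300 for E1 (65.4%), 288 for E2 (62.7%), 254 for I1b (55.3%), 152 for I2 (33.1%) and 180 for I3a (39.2%). In both sets E1, E2 and I1b lay nearer to I1a for more than 50% of the genes, and I2 and I3a for fewer. These shares cover called genes on deposited values and were not recomputed after scaling. The Lys and Dap controls divided the pools in the same way, and their part in these shares was not tested. Over all pairs of pools, I1a and I3b were neither the closest nor the farthest, with 626 calls against 278 for E1 and I1b, the fewest, and 1137 for I1a and I2, the most. I1a differed from E2 in 438 genes and from I1b, its namesake, in 579, while I3b differed from I3a in 437. Across genes, the I1a means correlated at 0.9436 with E1, 0.9409 with I1b and 0.9405 with E2. By correlation I1b thus lay slightly nearer to I1a than E2 did. The counts for pairs of pools were made on deposited values only.

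What I1a and I3b shared against all other pools was a short list of genes. With each pool as 1 replicate, 2 pools against 5, limma called no gene in either direction (0% of 4409), although 186 had an unadjusted p under 0.05. The smallest adjusted p was 0.403. A mean difference of at least 1 log2 unit was found for 241 genes, 95 higher and 146 lower in I1a and I3b. When the 14 arrays were fitted with the pool as a random block, 3 genes were called higher and 4 lower. That fit adds no pool. It draws on the technical arrays and assumes the same correlation within pools for every gene. Its lower p-values are therefore not evidence beyond the fit on pools. Counted without a test, 2 genes, Col24a1 and Igf1, lay at least 1 log2 unit higher on all 4 arrays of I1a and I3b than on any of the others (0.0454% of genes). Likewise 2 genes, Crh and Cav2, lay at least 1 unit lower (0.0454%). When the probe sets of each gene were averaged, 1 gene lay high and 1 low by this rule, so the list depended on the probe sets. With no minimum gap the counts were 42 higher (0.953%) and 75 lower (1.70%). By the same rule I1a with I1b shared 0 high and 0 low genes, and I3a with I3b shared 21 high and 7 low.

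The 250 bases before an annotated start are shown for 3 of these 4 genes. Which start the measured transcripts use was not tested. They are RefSeq sequences of build GRCm38.p6, all on the plus strand, for Col24a1 at chr3:145292222-145292471, Igf1 at chr10:87860861-87861110 and Cav2 at chr6:17280935-17281184. Capitals mark every CAGCTG, an E-box bound by helix-loop-helix factors, and every CCAAT on either strand, which reads ATTGG on the minus strand.
Col24a1: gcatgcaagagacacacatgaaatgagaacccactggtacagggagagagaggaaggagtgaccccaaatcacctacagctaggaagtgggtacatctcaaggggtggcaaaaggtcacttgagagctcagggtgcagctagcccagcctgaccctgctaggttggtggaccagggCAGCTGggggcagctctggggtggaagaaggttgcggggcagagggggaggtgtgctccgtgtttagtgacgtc
Igf1: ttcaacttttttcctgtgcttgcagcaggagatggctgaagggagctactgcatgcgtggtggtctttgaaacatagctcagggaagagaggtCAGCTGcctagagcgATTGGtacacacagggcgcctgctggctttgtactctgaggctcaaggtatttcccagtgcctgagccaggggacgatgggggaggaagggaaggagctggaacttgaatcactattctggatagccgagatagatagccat
Cav2: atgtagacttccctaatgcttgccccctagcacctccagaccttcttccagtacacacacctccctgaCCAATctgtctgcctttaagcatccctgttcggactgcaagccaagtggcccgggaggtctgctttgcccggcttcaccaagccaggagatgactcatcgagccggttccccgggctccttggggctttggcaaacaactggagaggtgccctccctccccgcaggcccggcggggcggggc
The palindrome CAGCTG was found in the windows of Col24a1 and Igf1 and not in that of Cav2, and 13.0% of 32851 promoter windows of the same length hold it. A CCAAT was found in the windows of Igf1 and Cav2 and not in that of Col24a1, and 33.9% of the windows hold it. The motifs do not overlap each other. The Igf1 window lies before 1 of its annotated starts, inside the gene's full RefSeq span. Such matches describe the letters only.

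Col24a1 encodes a fibrillar collagen chain. It read 8.03 and 8.09 in I1a and 7.39 and 7.14 in I3b. Its means elsewhere were 3.36 in E1, 2.53 in E2, 3.34 in I1b, 2.77 in I2 and 5.38 in I3a. The pair stood 4.18 above the mean of the others (SE 0.74, limma adjusted p = 0.540 on pools, 0.00648 with the random block). Among the others only I3a had a mean above 5, and with values under 5 set to 5 the difference shrank to 2.58.

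Igf1 encodes insulin-like growth factor 1, a secreted trophic factor. It read 7.92 and 7.84 in I1a and 9.42 and 9.49 in I3b, while the others had means of 4.70 in E1, 6.29 in E2, 4.20 in I1b, 2.45 in I2 and 6.37 in I3a. The pair stood 3.87 above the others (SE 1.06, limma adjusted p = 0.856), and the adjusted p was 0.0685 with the random block. Within the pair, Igf1 was higher in I3b, at -1.57 (limma adjusted p = 3.47e-05).

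Crh encodes corticotropin-releasing hormone, and it gave the widest shared difference. It read 2.90 and 2.83 in I1a and 4.36 and 4.02 in I3b. All other pools held it, with means of 10.87 in E1, 13.22 in E2, 8.29 in I1b, 7.73 in I2 and 9.69 in I3a. The pair stood 6.43 log2 units below the others (difference -6.43, SE 1.38, limma adjusted p = 0.683 on pools, 0.00692 with the random block). Crh was thus low in both pools, whereas its binding protein Crhbp was high in I3b and near the floor in I1a.

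Cav2 encodes caveolin-2, a membrane protein of caveolae. It read 3.62 and 4.07 in I1a and 4.47 and 4.77 in I3b, against means of 6.84 in E1, 7.72 in E2, 6.83 in I1b, 6.52 in I2 and 7.43 in I3a. The pair stood lower, with a difference of -2.84 (SE 0.38, limma adjusted p = 0.403 on pools, 0.00692 with the random block). The difference was -1.44 when the probe sets of Cav2 were averaged, so its size depended on the probe set.

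**Figure D4:**
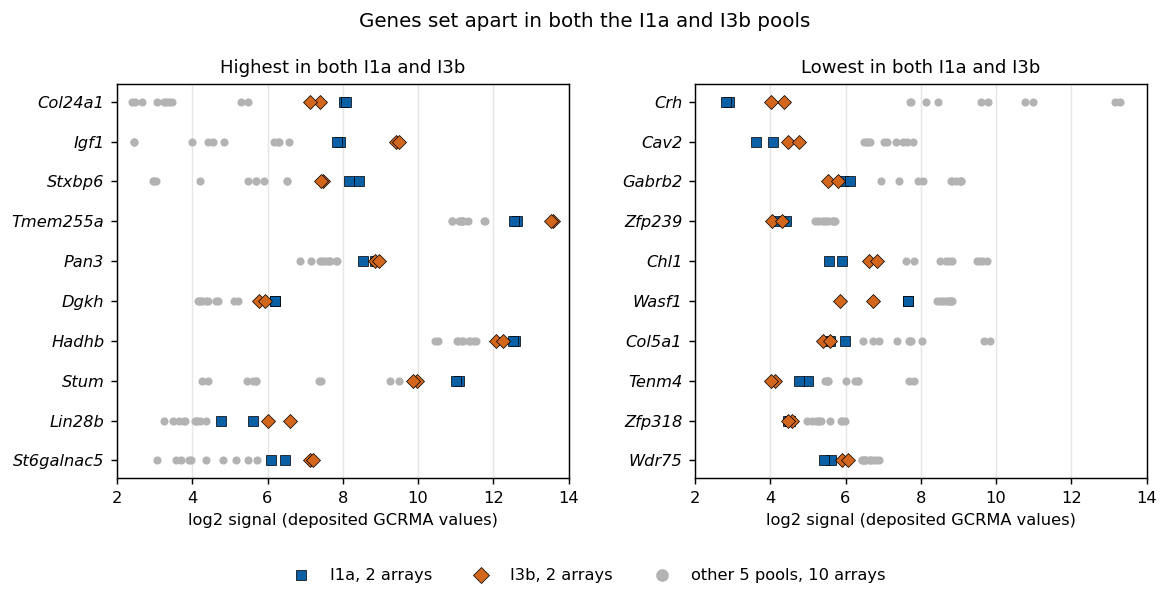
Signals of the 10 genes with the widest gap between both pools and all others, high on the left and low on the right, with the deposited log2 value of each array on the horizontal axis; blue squares are I1a arrays, orange diamonds I3b arrays and grey circles the 10 arrays of the other pools. The grey circles lie below both pools for every gene on the left and above both for every gene on the right, and the Crh gap is the widest.

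Further genes separated the pair from all others on every array by a narrower gap, and the 8 widest on each side are named. On the high side these were Stxbp6, a regulator of SNARE assembly (gap 0.92), Tmem255a (0.77), Pan3, of a complex that shortens poly(A) tails (0.69), Dgkh, a diacylglycerol kinase (0.57), Hadhb, an enzyme of mitochondrial fatty acid oxidation (0.52), Stum (0.39), Lin28b, an RNA-binding inhibitor of let-7 processing (0.39), and St6galnac5, a sialyltransferase (0.36). Tmem255a read 12.64 and 12.54 in I1a and 13.58 and 13.54 in I3b, against means of 10.91 to 11.76 in the other pools. On the low side they were Gabrb2, a GABA-A receptor beta subunit (gap 0.82), Zfp239 (0.78), Chl1 (0.76), Wasf1, a regulator of actin assembly (0.76), Col5a1, a collagen chain (0.49), Tenm4, a teneurin of synaptic adhesion (0.47), Zfp318 (0.40) and Wdr75 (0.35). Gabrb2 read 5.93 and 6.12 in I1a and 5.53 and 5.80 in I3b, so both pools held it above the floor. With the random block, which draws on technical arrays, Tmem255a and Hadhb were called higher and Chl1 and Gabrb2 lower, along with Col24a1, Crh and Cav2.

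Restricting the comparison to the inhibitory pools gave 6 genes on each side with a gap of at least 1. The high ones were Ccdc62, Col24a1, Dgkh, Igf1, Kitl and Neurod6, and the low ones Cav2, Crh, Itm2a, Necab1, Skor1 and Tenm4; the names beyond those above were chosen after their values were seen. Kitl, the ligand of the receptor Kit, read 9.06 and 8.78 in I1a and 8.22 and 8.46 in I3b. Neurod6, a helix-loop-helix factor, read 5.82 and 5.73 against 6.11 and 6.57, but its mean in E2 was 5.74, so it did not part the pair from the excitatory pools. The gene lists held few shared members: over all 33 lists, Igf1 and Crh were the only genes with a gap of at least 1.

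Each pool also had genes of its own. Counted without a test among 4409 genes, 6 were at least 1 unit higher in I1a than on any array of the other 6 pools. By the same rule 9 were lower in I1a, while I3b had 15 high and 6 low. The other single pools were not counted this way, so these numbers do not set I1a or I3b apart from them. Those high in I1a included Efemp1 and Car2, a carbonic anhydrase, and those high in I3b included Crhbp, Gng4, Penk, Vgf, Igfbp5, Prdm8, St18 and Igf1. Rgs4 and Kcnc2 were among the genes low in I3b alone, at 3.55 and 2.41. Car2 was chosen after its values were seen.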

How the data were processed

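Per the labels, cDNA of single neurons was amplified, cells were classified, and the cDNA of each type was pooled, labelled with biotin and hybridised to Affymetrix arrays. The deposited values are log2 signals made with affy and GCRMA, which adjusts for background and normalizes between arrays, per the submitters' processing notes. Versions and the log base are not given in the sources used here; the base was taken from the values.

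Of 30843 probe sets, 64 were controls, 24034 had 1 gene symbol (23883 matched by Entrez identifier to GRCm38.p6), 477 several and 6268 none. For each gene the 1-symbol probe set of highest mean over 14 arrays was used. R 4.3.3 with limma 3.58.1 fitted 1 mean per type to all arrays (7 residual degrees of freedom) or pool means (5), with an intensity trend and Benjamini-Hochberg adjustment over 4409 genes. Figures used matplotlib 3.10.9 and pandas 2.3.3. The fits were tried on simulated data with technical noise only and no variation between pools. The simulation therefore does not show how the fit on pools behaves with these data. Arrays of a pool correlated across genes at 0.983 in I1a and 0.990 in I3b, and the number of pools limits the precision. The labels name no second pool of a type, so p-values between I1a and I3b measure only the spread between arrays, which is technical.

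Genes were named if among the 10 most different called genes on either side whose I1a and I3b arrays did not overlap. Others were named if among up to 4 called per list, among 6 transmitter genes, or among the 10 of widest shared gap on either side. In the larger lists further called members were named after their values were seen. The members and the 33 lists were chosen with earlier results of these data known. The 121 tested genes known by clone names only were counted and are not named. Alternatives covered filters, scaling, floor, probe-set rule, trend, replicate block, pools and arrays left out. The random block and the restriction to inhibitory pools are among them. Replicate numbers did not pair the arrays: the deviations of same-numbered I1a and I3b arrays correlated at 0.08.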

Additional observations from a re-analysis of the deposited data

Results flagged for a closer look

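As deposited, for 2 of the named genes the contrasts I1a minus I3b and I1b minus I3a were called in opposite directions. The difference of the contrasts was also fitted in limma over all 14 arrays. Because the genes were picked for opposite calls on the same arrays, a low p in that fit adds no further evidence. For Calb2, I1a minus I3b less I1b minus I3a was -5.98 (SE 0.24, adjusted p = 2.65e-08), and for Chl1 it was -2.88 (SE 0.20, adjusted p = 2.23e-06). After quantile normalization and after centring the Calb2 value was -5.60 and -5.64 and the Chl1 value -2.58 and -2.54, but the first contrast of Chl1 was then under the 1-unit threshold, at -0.85 and -0.80. Each value rests on 1 pool per type.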

How the results depend on the processing

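Each type has 1 pool, so no alternative tests how far another pool would differ, and signals near the floor limit the size of many differences. Genes higher in I1a numbered 102 with a filter at 7, 257 after quantile normalization, 254 after centring, 106 with values under 5 set to 5 and 87 with probe sets averaged, against 167. Genes higher in I3b numbered 254 with the filter at 7 and 273 with probe sets averaged, against 459, and genes called the same way in both contrasts 123 with probe sets averaged, against 186. The filter tests fewer genes; for the other settings the cause was not tested. Leaving out single arrays gave 143 to 190, 381 to 530 and 176 to 193 for these counts. With the replicate number as a block they were 167, 460 and 186, and same-numbered arrays did not deviate together over all pairs of pools (correlations of -0.12 to 0.21), so the numbers were not taken as pairs.

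For both pools against the rest, where the main counts were 0 and 0, 1 gene was called higher (Ttr) and 1 lower (Zfp239) with no filter, 1 higher (Col24a1) with values under 5 set to 5, 1 lower (Cnr1) without the I2 pool, and 3 higher and 4 lower with the random block. Ttr and Cnr1 were named after their values were seen. Genes high on every array numbered 1 with probe sets averaged, 6 among inhibitory pools, 0 with a gap of 2, 42 with any gap, and 4 to 6 with 1 array per pool, against 2. Genes low on every array numbered 1, 6, 1 and 75 under those 4 settings and 6 without replicate 2 of every pool, against 2.

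None of the named differences between I1a and I3b changed sign among called values. In 928 of the recomputed values the call was unchanged, in 36 values of 20 genes it was lost, and in 2, both of Slc6a5, it was gained. Setting values under 5 to 5 ended the calls of Cacna2d3, Cck, Ephb1, Gnai2, Gphn, Hspa8, Htr1d, Kcnab1, Kcnc2, Pbx3, Scn3b, Sv2b and Unc13c. Among further list members named, Chl1, Fgf14, Gnb5 and Meis1 lost their calls under both scalings, as Gnai2 did, and Neurod1 under quantile normalization. Averaging probe sets ended those of Grik3, Grm7, Htr1d, Lifr and Stx1a. Calls of Sv2b and Hpcal1 were lost without I1a replicate 1, of Gnai2, Gphn and Hspa8 without I1a replicate 2, of Cacna2d3, Hspa8 and Kcnip4 without I3b replicate 1, and of Gnai2 and Gphn without I3b replicate 2.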
